A study of Mus musculus with 2 samples.

Results

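Steroid-metabolizing genes of mouse liver are described here, namely Hsd3b2, Hsd3b3, Hsd3b4, Hsd3b5, Hsd3b6, Hsd11b1, Hsd17b2, Hsd17b6, Srd5a1 and Akr1c6. They were chosen by name as steroid dehydrogenases and reductases, with earlier results of these data known. All 10 were found among the 24421 genes of the count tables. The RNA-seq data held 2 liver libraries of male C57BL/6 mice that were 6 weeks old when a high-fat diet began and ate it for 12 weeks. One library came from RORalpha f/f:Alb-Cre liver and is labelled as the liver-specific knockout (LKO). The other came from RORalpha f/f liver and is the control. Both groups thus carry the floxed Rora alleles and both received the diet, so that by genotype they differ in the Cre transgene. Alb-Cre is driven by the albumin promoter, which is active in hepatocytes, and the other cells of the liver can keep an intact Rora. With 1 library per genotype no replicate spread exists, so every value below describes these 2 libraries and no p-value was computed. The sources used here do not say how many animals a library pooled, if any.

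The targeted gene was read first. Rora, which encodes the nuclear receptor RORα, had 3677 counts in the library labelled LKO and 3701 counts in the control library. As CPM, counts scaled to each library's total after TMM adjustment, these are 24.1 CPM in the library labelled LKO and 33.4 CPM in the control library, a log2 ratio of -0.47. The total over the gene was thus not lost, and a count summed over the gene does not resolve the deleted exons. Directions below are therefore given for the library labelled LKO, as it was labelled.

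Total counts were 131843686 in the library labelled LKO and 128201591 in the control library, and 11137 genes passed the filter for measured genes (1 CPM on average and 20 counts in sum, or more). The hepatocyte markers used (Alb, Apoa1, Ttr, Fgb, Ass1 and Cps1) were abundant in both libraries, with a summed level of 105106 CPM in the library labelled LKO and 135890 CPM in the control library. Their log2 ratios had a median of -0.36 and ranged from -0.71 for Cps1 to -0.23 for Apoa1, a range that also held 6 of the 10 steroid genes. With totals in place of TMM this median was 0.06. Other cell types and zones also differed between the libraries. The 5 measured of 6 Kupffer cell markers (1 lower at 2-fold) had a median log2 ratio of -0.89, with summed levels of 39.5 CPM in the library labelled LKO and 73.8 CPM in the control library. The 10 pericentral hepatocyte markers (3 higher) had a median of 0.55, with summed levels of 11696 CPM in the library labelled LKO and 8139 CPM in the control library. For the 9 periportal markers (1 lower) the median was -0.64, with summed levels of 2598 CPM in the library labelled LKO and 3856 CPM in the control library. Of 6 stellate cell markers 1 was higher, Col1a1, with 1418 counts in the library labelled LKO and 159 in the control library, 6.48-fold higher. The stellate log2 ratios ranged from -0.56 for Rgs5 to 2.70 for Col1a1 with TMM, and Lrat was also below 0. Medians were 0.43 for the stellate cell markers, 0.12 for 5 endothelial markers and -0.31 for 2 measured of 5 cholangiocyte markers. With total counts these medians were 0.85, 0.54 and 0.11, so that of the cholangiocyte markers turned positive. The medians of the Kupffer, pericentral and periportal markers were then -0.47, 0.97 and -0.22. The part of these shifts in the results for the steroid genes was not tested. In whole liver, fewer cells of a type and less RNA per cell cannot be told apart.

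Steroid hormones reach the liver through the blood, and hepatocytes reduce, oxidize, hydroxylate and conjugate them. Dehydrogenases interconvert hydroxyl and keto groups on the steroid, which switches hormones between active and weak forms, and reductases saturate the ring. In mouse liver several of these genes are expressed more in males than in females, with growth hormone acting through STAT5B as the known control, and Hsd3b5 is known as a male-biased liver gene. RORα binds DNA as a monomer at an AGGTCA core that follows an A/T-rich stretch.

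All 10 genes passed the filter on low values, which is on the mean of the 2 libraries. Hsd3b4, Hsd3b5 and Hsd3b6 were below 1 CPM in the library labelled LKO and passed through their level in the control library. Hsd3b4 and Hsd3b5 were nearly lost in the library labelled LKO, and the other 8 stood between 1.22-fold and 1.87-fold below the control library with TMM scaling, although Hsd3b3 and Hsd11b1 turned positive with total counts. A gene counted as lower or higher when its CPM differed by at least 2-fold with a 95% counting interval that excluded 1. By this rule 2 of the 10 genes were lower in the library labelled LKO, beside 2.62% of all measured genes, and 0 of 10 were higher, beside 3.83% of all measured genes. At 1.5-fold with TMM 5 were lower, beside 9.76% of all measured genes, and 0 were higher, beside 10.5%. The genes added at 1.5-fold were Srd5a1, Hsd17b6 and Hsd3b6. With total counts their log2 ratios were -0.48, -0.47 and -0.25, short of 1.5-fold. The median log2 ratio of the 10 genes was -0.63, against -0.003 over all measured genes. Because the 10 genes were chosen with earlier results known, these comparisons are a description only. Without Hsd3b4 and Hsd3b5 the remaining 8 had a median of -0.53 and a range from -0.90 to -0.29.

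**Figure D1:**
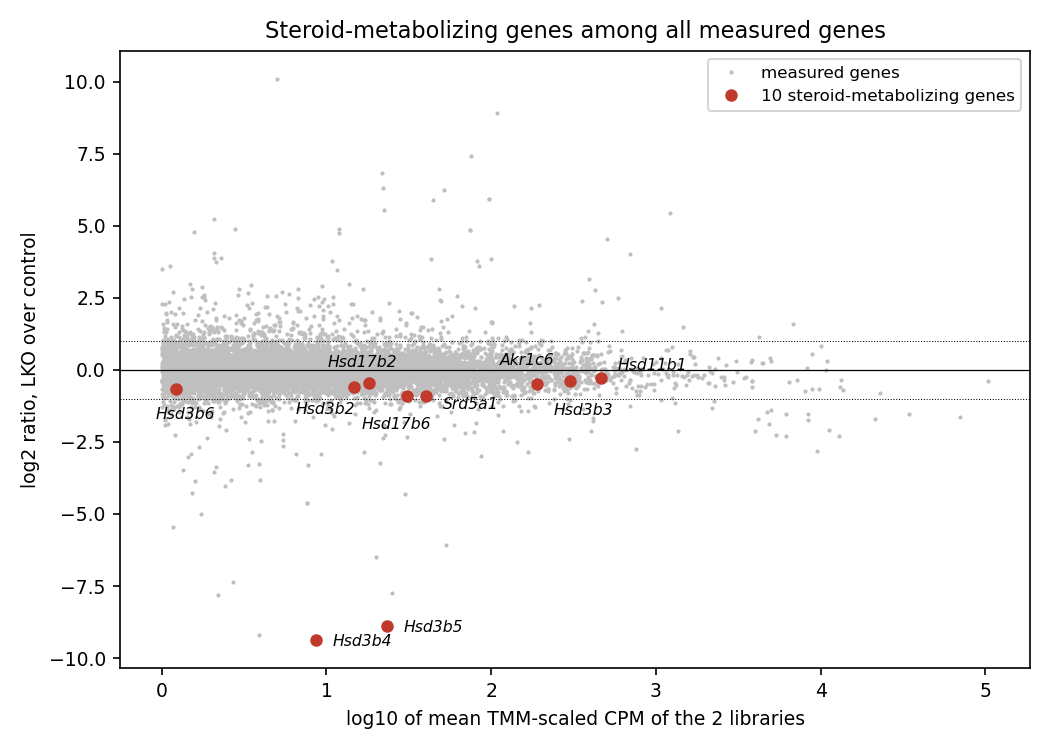
Each point is a measured gene with counts in both libraries, with the log10 of its mean TMM-scaled CPM on the x axis and its log2 ratio, LKO over control, on the y axis (TMM scaling). Red points are the 10 steroid-metabolizing genes, and dotted lines mark 2-fold. Hsd3b4 at -9.37 and Hsd3b5 at -8.88 lie at the lower edge of the plot, and the other 8 genes lie between -0.90 and -0.29, where total counts would turn Hsd3b3 and Hsd11b1 positive.

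How far the 8 smaller differences lie below 0 depended on the scaling. Total counts in place of TMM raised the log2 ratios by 0.42, so that any ratio above -0.42 turned positive. This holds here, for the markers above and in the lists further on. Under that scaling 8 of the 10 genes stayed below 0, while Hsd3b3 at 0.02 and Hsd11b1 at 0.13 turned positive. Over all measured genes, 426 were higher and 292 lower with TMM, and 1211 were higher and 120 lower with total counts. Counts of higher and lower genes among the markers above and in the lists further on are with TMM. Total counts move some of these genes across the 2-fold line. Leaving the 20 most abundant genes out of the totals, which left 87517425 counts in the library labelled LKO and 69151861 in the control library, raised the ratios by 0.12 and kept 10 of 10 below 0, with 689 genes higher and 274 lower overall. Hsd3b4 and Hsd3b5 kept log2 ratios below -8 under each of these scalings.

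The first family consists of 3β-hydroxysteroid dehydrogenases, encoded side by side on chromosome 3. In the mouse, Hsd3b2, Hsd3b3 and Hsd3b6 encode dehydrogenase-isomerases, which turn a 3β-hydroxy steroid into the keto form and move its double bond. Hsd3b4 and Hsd3b5 encode reductases, which use NADPH to turn a 3-keto steroid such as dihydrotestosterone into a 3β-hydroxy steroid. All 5 genes are protein coding and lie on the minus strand of mm10 (GRCm38) within 315 kb. In GENCODE M21 their positions are chr3:98499071-98510514 for Hsd3b4, chr3:98618634-98630252 for Hsd3b5, chr3:98709255-98724543 for Hsd3b2, chr3:98741523-98763127 for Hsd3b3 and chr3:98805504-98814443 for Hsd3b6.

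The reductase genes gave the largest differences among the 10. Hsd3b5 had 15 counts (0.0984 CPM) in the library labelled LKO and 5133 counts (46.3 CPM) in the control library. It was 471-fold lower in the library labelled LKO (95% interval 285 to 842), the seventh lowest ratio of the 11137 measured genes. Hsd3b4 had 4 counts (0.0262 CPM) in the library labelled LKO and 1920 counts (17.3 CPM) in the control library. It was 660.3-fold lower (257 to 2426), the fifth lowest of all measured genes. The intervals of the 2 folds overlap, so the 2 genes cannot be ordered by their loss. Both ranks are among genes that passed the filter on their mean level, as these 2 did through the control library.

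The dehydrogenase-isomerase genes of the same cluster differed far less. Hsd3b3, the most abundant of the family in both libraries, had 39810 counts (261 CPM) in the library labelled LKO and 38057 counts (343 CPM) in the control library. Its level was 1.32-fold lower in the library labelled LKO (1.30 to 1.33). Hsd3b2 had 1805 counts (11.8 CPM) in the library labelled LKO and 1960 counts (17.7 CPM) in the control library, and was 1.49-fold lower (1.40 to 1.59). Hsd3b6, which in the mouse is known from skin, placenta and adrenal gland, had 144 counts (0.944 CPM) in the library labelled LKO and 167 counts (1.51 CPM) in the control library. Its level was 1.60-fold lower, with a wide interval of 1.27 to 2.01. With total counts the log2 ratios of Hsd3b3, Hsd3b2 and Hsd3b6 were 0.02, -0.16 and -0.25, so most of each ratio comes with the TMM factors.

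**Figure D2:**
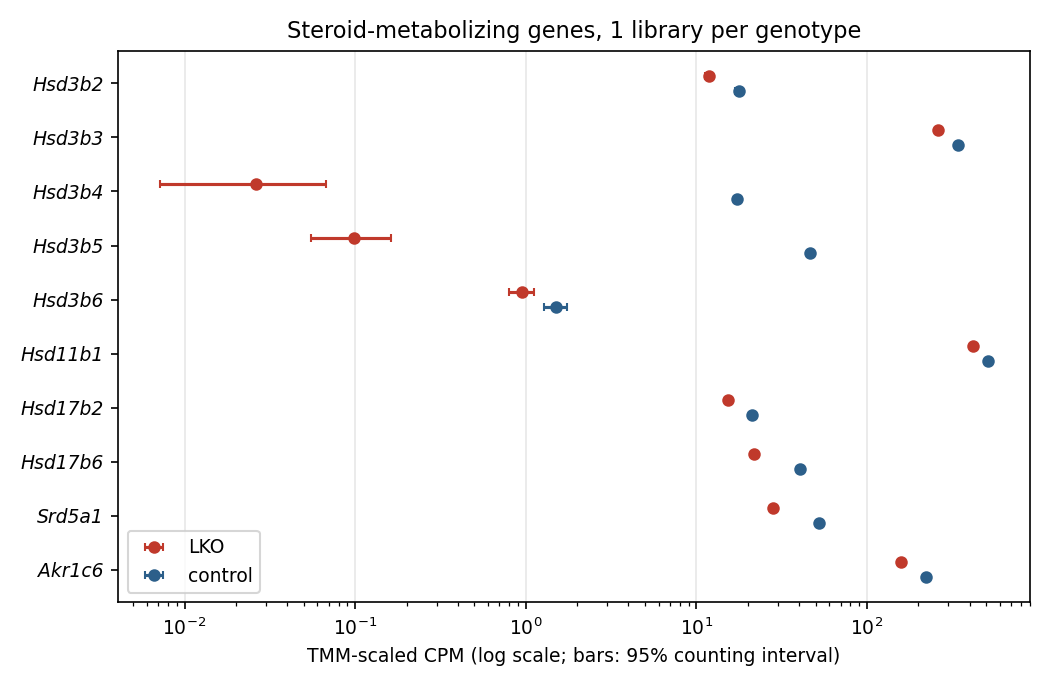
Levels of the 10 genes in TMM-scaled CPM on a log axis, with the library labelled LKO in red above the control library in blue, and bars for the 95% counting interval. Hsd3b4 and Hsd3b5 are at 0.0262 and 0.0984 CPM in the library labelled LKO, against 17.3 and 46.3 CPM in the control library, while for the other 8 genes the paired points lie close together, in an order that total counts turn for Hsd3b3 and Hsd11b1.

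The members of this family are close copies, so where a read was counted matters. The coding sequences of all 5 genes are 1119 bases long in GENCODE M21. Hsd3b4 and Hsd3b5 share 95.2% of these bases, and Hsd3b2, Hsd3b3 and Hsd3b6 share 94.4% to 95.1% with each other. Between the reductase pair and the other 3 genes identity was 79.5% to 81.0%. The genes thus fall by sequence into the same sets as by their ratios, and 150 coding positions (13.4%) carry one base in both reductase genes and another base in all 3 isomerase genes. A stretch of 60 bases from the last coding exon shows these differences. It was picked after the values were seen, as the part richest in such positions, and corresponds to coding bases 577 to 636, with the 21 separating positions in capitals.
Hsd3b4 (chr3:98499942-98500001, GRCm38, minus strand): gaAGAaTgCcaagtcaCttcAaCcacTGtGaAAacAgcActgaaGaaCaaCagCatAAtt
Hsd3b5 (chr3:98619493-98619552, GRCm38, minus strand): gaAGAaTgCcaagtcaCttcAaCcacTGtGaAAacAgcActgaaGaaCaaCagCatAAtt
Hsd3b2 (chr3:98711992-98712051, GRCm38, minus strand): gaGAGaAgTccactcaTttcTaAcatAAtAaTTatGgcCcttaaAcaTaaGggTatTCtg
Hsd3b3 (chr3:98742370-98742429, GRCm38, minus strand): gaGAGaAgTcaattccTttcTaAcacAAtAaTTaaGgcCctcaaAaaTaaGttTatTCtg
Hsd3b6 (chr3:98806346-98806405, GRCm38, minus strand): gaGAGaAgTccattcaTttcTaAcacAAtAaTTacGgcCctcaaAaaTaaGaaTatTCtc

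Hsd3b4 and Hsd3b5 read the same over these 60 bases, while each isomerase gene departs from them at every capital. The share of 50-base windows of a transcript that another gene of the annotation holds exactly measures how many short reads could fit both genes. No 50-base window of Hsd3b5 was found in Hsd3b2 or Hsd3b3, and 0.467% were found in Hsd3b6. Hsd3b4 held 2.24% of its windows in common with Hsd3b2 and 2.37% with Hsd3b3, against 17.5% with Hsd3b5. Within the isomerase genes sharing was higher, and 27.2% of the windows of Hsd3b3 were also in Hsd3b2. The split of reads inside each set is therefore less certain than the split between the sets.

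Another gene could not be separated from Hsd3b4. Gm10681, at chr3:98552542-98588807 between Hsd3b4 and Hsd3b5, has the same 1119 coding bases as Hsd3b4, and each 50-base window of the Hsd3b4 transcript occurs in it. It had 2 counts in the library labelled LKO and 858 in the control library, a log2 ratio of -9.20 (-12.25 to -7.35). RefSeq lists Hsd3b4 as another name of Gm10681. Summing both genes gave a log2 ratio of -9.31 in place of -9.37 for Hsd3b4 alone. Hsd3b4, Hsd3b5 and Gm10681 together had 21 counts in the library labelled LKO and 7911 in the control library, a 518-fold lower level (339 to 838) that does not depend on how reads were split among the 3. Gm4450, Gm19210, Gm19211 and Gm9678 also hold 50-base windows of Hsd3b4 and of Hsd3b5. They are not in this sum, so a split of reads with them is not removed.

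Summing over Hsd3b2 to Hsd3b6 removes the split among these 5 genes. The sum had 41778 counts in the library labelled LKO and 47237 in the control library. The sum and the shares below leave out Gm10681, so they still depend on how reads were split between Hsd3b4 and Gm10681. This sum was 1.56-fold lower in the library labelled LKO (1.53 to 1.58), a log2 ratio of -0.64. The 3 isomerase genes had 41759 counts in the library labelled LKO and 40184 in the control library, a log2 ratio of -0.40 with TMM and of 0.02 with total counts. Hsd3b3 holds most of the family's counts, and without Hsd3b3 the log2 ratio was -2.68. Of the family's counts, Hsd3b5 made up 0.0359% in the library labelled LKO and 10.9% in the control library. Hsd3b4 made up 0.00957% in the library labelled LKO and 4.06% in the control library. Hsd3b3 had the larger share in the library labelled LKO, 95.3%, against 80.6% in the control library. The shares of Hsd3b2 (4.32% in the library labelled LKO and 4.15% in the control library) and of Hsd3b6 (0.345% in the library labelled LKO and 0.354% in the control library) had overlapping intervals.

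**Figure D3:**
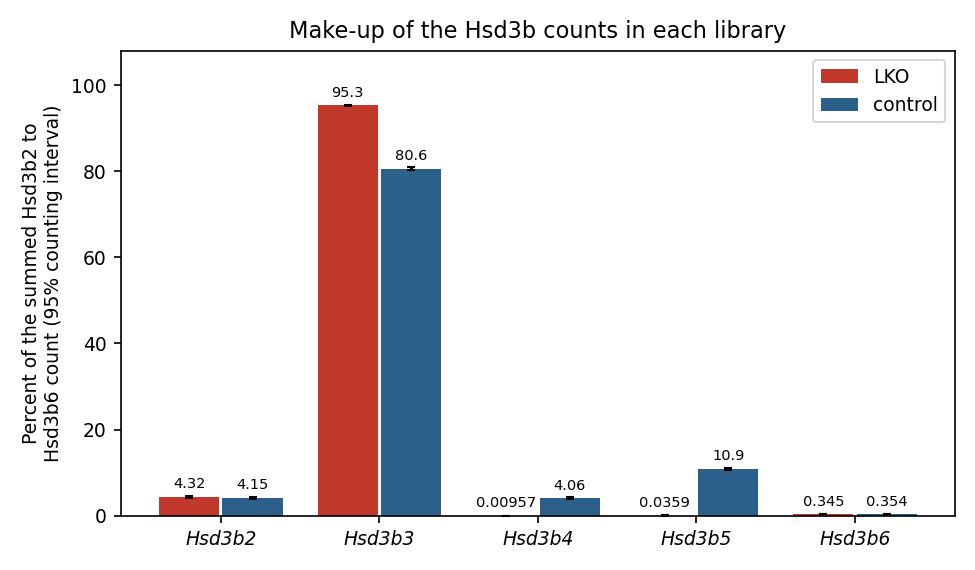
Share of each gene in the summed Hsd3b2 to Hsd3b6 count, in percent, with red bars for the library labelled LKO and blue bars for the control library and 95% counting intervals. Hsd3b5 and Hsd3b4 make up 10.9% and 4.06% of the control library's counts and are not visible at this scale in the library labelled LKO, where Hsd3b3 makes up 95.3%.

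These shares are of counts and not of transcripts, and the counting method bears on them. Among genes with 1 to 49 counts and 2 curated RefSeq transcripts, 66.8% of counts in the library labelled LKO and 68.0% in the control library were even numbers. With 1 curated transcript these were 50.8% in the library labelled LKO and 54.3% in the control library. Of the 10 steroid genes, 3 of the 4 with 2 curated transcripts (Hsd3b4, Hsd11b1 and Hsd17b6) had even counts in both libraries, and 0 of the 5 with 1 curated transcript did. Hsd3b3 has 5 curated transcripts. When each count was divided by its gene's curated transcripts, Hsd3b3 made up 88.2% of the family in the library labelled LKO and 51.3% in the control library. Hsd3b5 then made up 0.166% in the library labelled LKO and 34.6% in the control library. Hsd3b2 made up 9.999% in the library labelled LKO and 6.60% in the control library, and Hsd3b6 made up 1.60% in the library labelled LKO and 1.12% in the control library, so their near-equal shares did not hold under this division. A ratio between the libraries for 1 gene is not changed by such a division, but its counting interval would be wider with the smaller counts.

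The position of each gene followed the same sets. Hsd3b4, Gm10681 and Hsd3b5 occupy one end of the cluster, and 79.0 kb separate Hsd3b5 from Hsd3b2, where the isomerase genes begin. Within 500 kb of the cluster 44 genes are annotated, of which 17 were used here and 13 of these reached 20 counts in sum. Hao2, which encodes a peroxisomal hydroxyacid oxidase and lies next beyond Hsd3b1, had 459 counts in the library labelled LKO and 12 in the control library, a 27.8-fold higher level (15.8 to 54.2). Notch2, on the side of Hsd3b4, and Wars2, beyond Hao2, had log2 ratios of 0.11 and -0.32. The neighbours described here were thus not lower as a block. Hsd3b1, the isomerase of adrenal and gonad, had 16 counts in the library labelled LKO and 8 in the control library. Phgdh had 16 counts in the library labelled LKO and 18 in the control library, and Mir6481 had 33 in the library labelled LKO and 36 in the control library, both too few to be measured. Zfp697 is annotated on the opposite strand across Hsd3b4, Hsd3b5, Hsd3b2 and Hsd3b3. Its 21 counts in the library labelled LKO and 18 in the control library are few beside theirs in the control library. In the library labelled LKO its 21 counts exceed the 4 of Hsd3b4 and the 15 of Hsd3b5. Strand use in counting is not stated, and the part of Zfp697 in these counts was not tested.

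**Figure D4:**
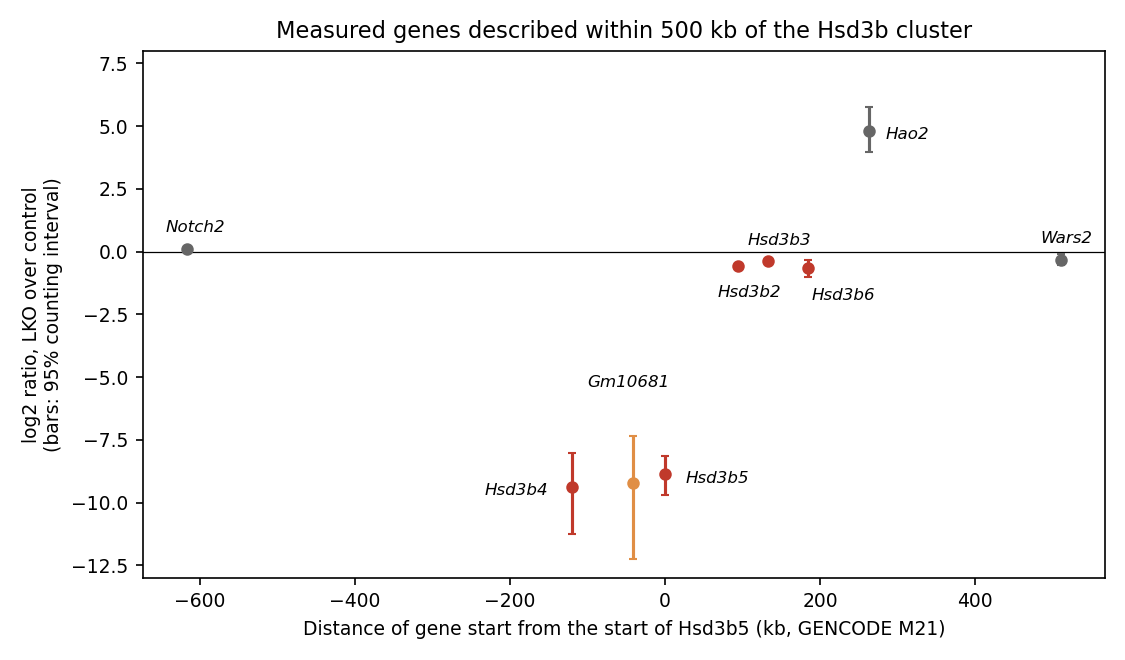
Measured genes described within 500 kb of the Hsd3b cluster, placed by the distance of their start from that of Hsd3b5 in kb, with the log2 ratio, LKO over control, on the y axis and bars for the 95% counting interval. Hsd3b genes are red and Gm10681 is orange. Hsd3b4, Gm10681 and Hsd3b5 lie near -9, the 3 isomerase genes between -0.67 and -0.40 (Hsd3b3 turns positive with total counts), and Hao2 at 4.80.

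Sequence before the annotated starts was compared for the same genes. RefSeq windows of 250 bases before and 50 bases after a start (GRCm38.p6) were available for 9 of the 10 genes, 12 windows in all. The window of Hsd3b5 belongs to a start 15.3 kb upstream of the one in GENCODE M21. It aligned with both windows of Hsd3b3 over 247 bases, at 76.9% and 76.1% identity, and no other windows of different Hsd3b genes aligned over more than 72 bases. Thus the RefSeq window of Hsd3b5, at 471-fold, aligned longest with those of Hsd3b3, at 1.32-fold, and not with those of Hsd3b4. The bases before the GENCODE start of Hsd3b5 were not compared. The bases before the starts of these 3 genes are shown for this contrast, with AGAACA in capitals where present.
Hsd3b4 (chr3:98510568-98510817, GRCm38.p6, minus strand): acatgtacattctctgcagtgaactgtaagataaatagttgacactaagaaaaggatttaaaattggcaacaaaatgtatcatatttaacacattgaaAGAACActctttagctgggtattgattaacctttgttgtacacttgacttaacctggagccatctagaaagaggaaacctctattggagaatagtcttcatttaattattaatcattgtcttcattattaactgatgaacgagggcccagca
Hsd3b5 (chr3:98645535-98645784, GRCm38.p6, minus strand): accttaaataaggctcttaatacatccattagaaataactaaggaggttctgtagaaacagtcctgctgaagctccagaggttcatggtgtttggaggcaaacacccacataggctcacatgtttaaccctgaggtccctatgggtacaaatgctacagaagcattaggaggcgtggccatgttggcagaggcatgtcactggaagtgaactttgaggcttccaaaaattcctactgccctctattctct
Hsd3b3 (chr3:98763129-98763378, GRCm38.p6, minus strand): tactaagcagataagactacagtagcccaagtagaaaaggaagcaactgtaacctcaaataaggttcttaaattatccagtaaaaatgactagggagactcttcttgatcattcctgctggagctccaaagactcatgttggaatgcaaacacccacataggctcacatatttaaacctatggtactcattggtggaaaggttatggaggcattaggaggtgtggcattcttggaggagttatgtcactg

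Motifs were searched as exact letters on both strands of the 300-base windows. AGGTCA, the core site of RORα and other nuclear receptors, was in 0 of the 12 windows, and 16.3% of all 32851 RefSeq windows hold it. TAGGTCA or TGGGTCA, the first of which overlaps AGGTCA, was also in 0 of 12, against 6.45% of all windows. TTCNNNGAA, the STAT element, was in 0 of 12, against 8.30% of all windows. AGAACA, one arm of the steroid receptor element, was in 4 of 12 windows, against 19.0% of all. These were the windows of Hsd3b2 and Hsd3b6 and the overlapping windows of Hsd3b4, which share 1 site. CAAAGTCCA or CAAAGGTCA, letters of the HNF4 type, was in 2 of 12, against 0.950% of all windows. Both were windows of Hsd3b3 with the match just after the start. These 2 windows aligned over 299 bases at 99.3% identity, so they are near copies of 1 sequence. The windows of Hsd17b6 overlap as well, so the 12 windows are not 12 separate sequences. A match describes these letters only, and the windows cover little of each gene's flank.

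Hsd17b6 and Srd5a1 had the lowest ratios after the reductase genes. Srd5a1 (chr13:69573449-69611442) encodes the type 1 steroid 5α-reductase, which saturates the ring of testosterone and of glucocorticoids. It had 4272 counts (28.0 CPM) in the library labelled LKO and 5813 counts (52.4 CPM) in the control library, and was 1.87-fold lower (1.80 to 1.95). Hsd17b6 (chr10:127990936-128007611) encodes an oxidative enzyme that turns androstanediol back towards active androgens. It had 3316 counts (21.7 CPM) in the library labelled LKO and 4462 counts (40.3 CPM) in the control library, a 1.85-fold lower level (1.77 to 1.94). Both genes missed the 2-fold line, and both stayed below 0 with total counts, at -0.48 for Srd5a1 and -0.47 for Hsd17b6. Srd5a1 overlaps Nsun2 on the opposite strand, which had 2660 counts in the library labelled LKO and 3243 in the control library. Whether strand was used in counting is not stated, so reads of the overlap cannot be told apart. In addition, 13.5% of the 50-base windows of Hsd17b6 were also in Rdh1, and 16.5% of those of Srd5a1 in the overlapping Gm17108.

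The enzymes acting at carbon 17 were modestly lower. Akr1c6 (chr13:4434306-4457877), the mouse aldo-keto reductase that reduces androstenedione to testosterone, had 24095 counts (158 CPM) in the library labelled LKO and 24572 counts (222 CPM) in the control library. This is a 1.40-fold lower level (1.38 to 1.43). Hsd17b2 (chr8:117701904-117759027), which oxidizes testosterone and estradiol to weaker hormones, had 2334 counts (15.3 CPM) in the library labelled LKO and 2347 counts (21.2 CPM) in the control library. It was 1.38-fold lower (1.31 to 1.47). The reducing and the oxidizing enzyme thus had nearly the same ratio, with overlapping intervals, and with total counts both were within 0.07 of 0 on the log2 scale.

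Hsd11b1 (chr1:193221634-193264075) encodes the enzyme that regenerates active glucocorticoid, corticosterone in the mouse, inside hepatocytes. It had 63828 counts (419 CPM) in the library labelled LKO and 56588 counts (510 CPM) in the control library. Its 1.22-fold lower level (1.21 to 1.23) was the smallest difference of the 10, and its log2 ratio of -0.29 lay within the range of the hepatocyte markers. Its sign was positive with total counts. H6pd, which supplies the NADPH that Hsd11b1 uses, had 29574 counts (194 CPM) in the library labelled LKO and 16131 counts (146 CPM) in the control library, 1.33-fold higher. Hsd11b2, the enzyme of the reverse reaction in kidney, had 0 counts in both libraries. Lamb3 overlaps Hsd11b1 on the opposite strand, with 1184 counts in the library labelled LKO and 300 in the control library, few beside those of Hsd11b1.

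Levels of different genes were compared as CPM per kilobase of the longest annotated transcript. In the library labelled LKO the order was Hsd11b1 (212), Akr1c6 (113), Hsd3b3 (54.8), Hsd17b6 (14.3), Hsd17b2 (11.6), Srd5a1 (10.6), Hsd3b2 (3.20), Hsd3b6 (0.524), Hsd3b5 (0.0635) and Hsd3b4 (0.0163), all in CPM per kb. In the control library it was Hsd11b1 (258), Akr1c6 (159), Hsd3b3 (72.0), Hsd3b5 (29.9), Hsd17b6 (26.4), Srd5a1 (19.8), Hsd17b2 (16.0), Hsd3b4 (10.8), Hsd3b2 (4.79) and Hsd3b6 (0.836). By this measure the 3 leading genes were the same in both libraries, and Hsd3b5 and Hsd3b4 took the last places in the library labelled LKO in place of the fourth and the eighth. Hsd3b5 and Hsd3b4 in the library labelled LKO were the only neighbours in either order whose counting intervals overlapped. With the median length of protein-coding transcripts as the divisor, the order in the library labelled LKO did not change, and in the control library Hsd17b6 (39.5) passed Hsd3b5 (29.9). Dividing the levels per longest transcript also by the number of curated transcripts put Akr1c6 first and Hsd11b1 second in both libraries. The third place then went to Hsd17b2 (11.6) in the library labelled LKO and to Hsd3b5 (29.9) in the control library, while Hsd3b3 took rank 4 (11.0) in the library labelled LKO and rank 6 (14.4) in the control library.

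Signs of steroid-making tissue or kidney were looked for, since Hsd3b4 is known from mouse kidney. Of the 10 markers of steroidogenic cells, 6 (Cyp11a1, Cyp11b1, Cyp11b2, Cyp19a1, Nr5a1 and Mc2r) were at 0 in both libraries. Cyp17a1 had 3432 counts in the library labelled LKO and 2814 in the control library (log2 ratio -0.17), and Cyp21a1 had 5354 in the library labelled LKO and 6196 in the control library (log2 ratio -0.67). Star had 58 counts in the library labelled LKO and 37 in the control library. Insl3 had 79 in the library labelled LKO and 33 in the control library. Both were too low to be measured. The ratio of Star had an interval of 0.74 to 1.77, which includes 1, and that of Insl3 had an interval of 1.15 to 2.70. Of the 6 kidney tubule markers 4 (Umod, Slc12a1, Aqp2 and Kap) were at 0 in both libraries. Slc34a1 had 0 counts in the library labelled LKO and 2 in the control library. Slc5a2, the remaining kidney tubule marker, was measured, with 654 counts in the library labelled LKO and 350 in the control library. Its level was 4.29 CPM in the library labelled LKO and 3.16 CPM in the control library. The part of other tissues in the counts of Hsd3b4 was not tested.

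No measured gene in the lists of related enzymes, which do not hold Gm10681, had a ratio as low as those of Hsd3b4 and Hsd3b5. Among the other 3β-HSD genes only Hsd3b7, the isomerase of bile acid synthesis, was measured, with 23368 counts in the library labelled LKO and 14936 in the control library, a log2 ratio of 0.19. Of the 8 measured other 17β-HSD genes 0 were higher and 0 lower at 2-fold, with a median of 0.12. They ranged from -0.39 for Hsd17b13, a lipid droplet protein, to 0.45 for Hsd17b7, an enzyme of cholesterol synthesis. Of the 7 measured other steroid reductases and AKR1 genes 0 were higher and 0 lower, with a median of -0.42. The relatives of Akr1c6 were the low ones, with Akr1c19 at 1.67-fold lower, Akr1c20 at 1.66-fold lower and Akr1c14, the 3α-hydroxysteroid dehydrogenase, at 1.47-fold lower. Akr1d1, the 5β-reductase, had a log2 ratio of 0.06, against -0.90 for the 5α-reductase gene Srd5a1. Of 8 measured relatives of Hsd17b6, 1 was higher and 1 lower, with a median of -0.05 (0.37 with total counts). Rdh16, a retinol dehydrogenase, was 2.65-fold higher, and Sdr9c7 was 2.20-fold lower. With total counts Sdr9c7 falls short of 2-fold.

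Of the 18 measured genes of steroid hydroxylation and conjugation, 1 was higher and 1 lower at 2-fold, with a median log2 ratio of -0.16 (0.26 with total counts). Cyp7b1, the oxysterol and steroid 7α-hydroxylase, had 6497 counts in the library labelled LKO and 26973 in the control library and was 5.71-fold lower. Cyp3a11, a hydroxylase of steroids and drugs, had 91116 counts in the library labelled LKO and 33102 in the control library and was 2.001-fold higher. Ugt2b1, a glucuronosyltransferase, was 1.89-fold lower. In the group of steroid receptors, carriers and cofactor supply, 0 of 9 measured genes were higher and 0 were lower with TMM. The median was 0.19 (0.61 with total counts). These genes ranged from -0.51 for Fkbp4, a co-chaperone of steroid receptors, to 0.79 for Por, the reductase that feeds electrons to cytochromes P450. With total counts Por passes the 2-fold line.

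Genes known to respond to glucocorticoids differed in both directions, with 3 of 11 measured genes higher, 2 lower and a median log2 ratio of 0.18. Zbtb16 was 4.43-fold, Angptl4 2.84-fold and Fkbp5 2.03-fold higher in the library labelled LKO. Sgk1 was 4.31-fold and Tat, the tyrosine aminotransferase, 2.24-fold lower, and with total counts Tat falls short of 2-fold. Among 9 measured regulators of sex-biased liver genes, 1 was higher, 1 was lower and the median was -0.22 (0.20 with total counts). Bcl6, a repressor that is male-biased in mouse liver, had 1099 counts in the library labelled LKO and 4120 in the control library and was 5.16-fold lower. Onecut1 (HNF6) had 1749 counts in the library labelled LKO and 227 in the control library and was 5.60-fold higher. Ghr, the growth hormone receptor, had a log2 ratio of -0.35 with TMM, a sign that turned with total counts. Stat5b had 9676 counts in the library labelled LKO and 5548 in the control library, 1.27-fold higher.

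**Figure D5:**
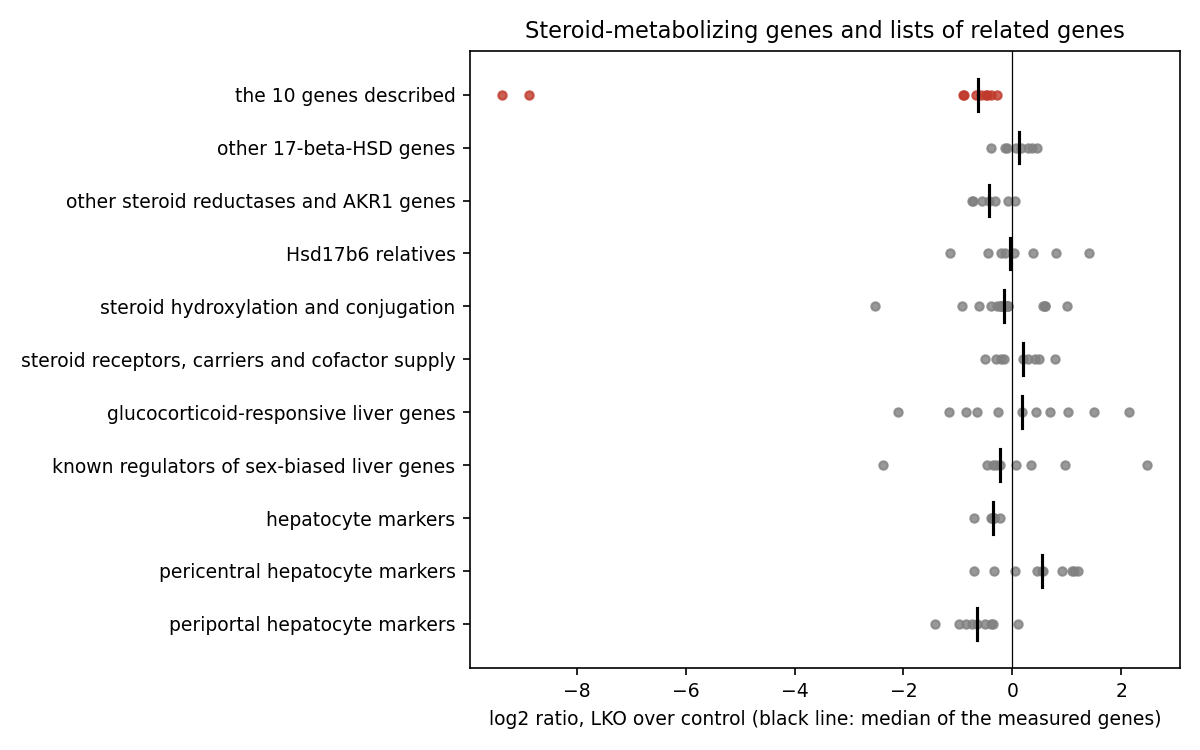
Log2 ratios, LKO over control, of the 10 steroid-metabolizing genes in red and of the measured genes of each list in grey, with a black line at each median. Hsd3b4 and Hsd3b5 stand apart on the left, and the other 8 genes of the top row lie between -0.90 and -0.29 with TMM scaling, of which Hsd3b3 and Hsd11b1 turn positive with total counts.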

How the data were processed

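The authors deposited 1 table of whole-number read counts per gene symbol for each library, without normalization. Trizol extraction and the LEXOGEN mRNA-Seq kit were used, per the labels' protocols. The submitters' processing notes name mm10, TopHat and edgeR, with no versions or roles. How reads were counted, on which annotation and with what handling of strand and of reads with several alignments, the sources used here do not say.

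From these counts, TMM factors were computed with edgeR 4.0.16 (R 4.3.3) over all genes, and CPM with them. Each ratio is that of the library labelled LKO over the control library. Its 95% Clopper-Pearson interval is conditional on the summed count and covers counting error only, because PCR reads without molecular identifiers are not independent molecules. The code was tested on simulated counts with known ratios. Genes were filtered and called as the results state. Alternatives were other scalings (total count, DESeq2 1.42.0 size factors, upper quartile, and totals that leave out the 20 most abundant genes), filters, thresholds and added counts.

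The 10 genes and all lists and markers were chosen with earlier results of these data known. Besides the 10 genes and Rora, the text names up to 3 of the highest, 3 of the lowest and 2 of the most abundant measured genes of a list, and genes within 500 kb of the Hsd3b cluster with at least 20 counts. Positions and transcripts are from GENCODE M21 (GRCm38, or mm10), and start windows from RefSeq (GRCm38.p6). Promoter windows were matched by gene symbol. Results for some genes are not reported here, and the lists and neighbour counts leave them out.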

Additional observations from a re-analysis of the deposited data

How the results depend on the processing

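With 1 library per genotype no replicate can be left out. No paired analysis was possible because each group has 1 library and no result comes from a test. The count of 2 steroid genes lower and 0 higher at 2-fold was the same under all 4 other scalings, a 3-fold threshold, a wider interval, no filter on low counts and halved counts. With TMM it was 5 lower at a 1.5-fold threshold, which Srd5a1, Hsd17b6 and Hsd3b6 did not reach with total counts. It was 1 lower under a filter at 10 CPM on average, which leaves out Hsd3b4 and Hsd3b6 by construction. The median log2 ratio of the 10 genes, -0.63 with TMM, was -0.21 with total counts, -0.64 with the upper quartile, -0.51 without the 20 most abundant genes, -0.53 under the filter at 10 CPM and -0.56 with the Hsd3b family counted as 1 gene. For the summed Hsd3b2 to Hsd3b6 count, -0.64 with TMM, it was -0.22 with total counts, -0.52 without the 20 most abundant genes and -2.68 without Hsd3b3. Dividing counts by curated transcripts, an alternative chosen after seeing the data like the sum of Hsd3b4 with Gm10681, gave -1.18. With 5 counts added to both libraries, Hsd3b4 was at -8.20 and Hsd3b5 at -8.47, so the size of their ratios rests on 4 and 15 counts. No animal-to-animal spread was measured, so none of these differences is tied to genotype beyond these libraries.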

Other observations

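Several steroid enzymes fell under the filter and are given as counts only, chosen after their values were seen. Akr1c18, the 20α-hydroxysteroid dehydrogenase that inactivates progesterone, had 0 counts in the library labelled LKO and 18 in the control library. Sult1e1, the estrogen sulfotransferase, had 24 counts in the library labelled LKO and 0 in the control library. Hsd17b1, which makes estradiol in the ovary, had 3 counts in the library labelled LKO and 25 in the control library. Srd5a2, the type 2 5α-reductase, had 76 counts in the library labelled LKO and 34 in the control library, with an interval of the ratio from 1.07 to 2.51.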
